A study of Mus musculus with 18 samples.

Results

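The heat shock proteins and their DnaJ cochaperones were followed in inguinal fat, a white fat depot under the skin, of male C57BL/6J mice. They were taken by gene symbol: the HSP70, HSP110, HSP90, HSP60, HSP10 and small heat shock protein families, the DnaJ families A, B and C, and the regulators Hsf1, Hsf2 and Hsbp1. The rule found 75 of the 21899 genes in the tables: 13 of the HSP70 family, 1 of HSP110, 3 of HSP90, 2 of HSP60 and HSP10, 8 small heat shock proteins, 4 of DnaJ family A, 13 of family B, 28 of family C and 3 regulators. The mice had received Lewis lung carcinoma cells (LLC, a mouse lung tumour line grown here as a transplant) or phosphate-buffered saline (PBS) beneath the skin. Of the 18 libraries, 5 came from LLC and 4 from PBS mice sampled 21 days after the injection, and another 5 from LLC and 4 from PBS mice sampled at 7 days. The labels name day 21 the cachexia stage, when fat and muscle waste, and day 7 the stage before it. No genetic change is named for any group. The labels do not say whether each library is a separate mouse, so p-values measure the spread between libraries, part of which may be technical.

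Molecular chaperones hold and refold other proteins. HSP70 proteins bind exposed stretches of unfolded chains in a cycle driven by ATP, DnaJ proteins deliver the chains and start that cycle, HSP110 proteins reset it, HSP90 completes the folding of kinases and hormone receptors, and small heat shock proteins hold damaged proteins out of aggregates. The transcription factor HSF1 switches on the cytosolic set when unfolded protein accumulates, by binding repeated GAA units (heat shock elements) in promoters. The endoplasmic reticulum (ER) and the mitochondria keep their own HSP70 proteins and partners, the ER set under control of the unfolded protein response.

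Promoter sequence is shown for members that the results turn on. RefSeq windows on build GRCm38.p6, from 250 bases before to 50 bases after the annotated start, existed for 60 of the 75 members. A heat shock element of 2 units, GAANNTTC or TTCNNGAA (each reads the same on both strands, and matches may overlap), was found in 16 of the 60 members with a window, or 26.7%, against 17% of 27025 genes. Of the 11 HSF1 target chaperones with a window, 9 held it. Outside that list it was found in Dnajb6, Dnajc10, Dnajc27, Hspb6 and Hspb8, and in Dnajc5g and Hspb3, which had too few counts to test. In LLC over PBS at day 7, log2 differences of the tested ones were -0.02, -0.08, -0.23, -0.48 and -0.05. In LLC at day 21 over LLC at day 7 they were 0.16, 0.19, 0.32, 0.25 and -0.20. The element with 3 units, GAANNTTCNNGAA or TTCNNGAANNTTC, contains the shorter one. It was found in 4 members (Dnajb6, Hspd1, Hspe1 and Hsph1), or 6.67%, against 0.662% of genes and 0.603% of all 32851 windows. Hspd1 and Hspe1 lie on opposite strands of chr1 with overlapping GENCODE spans. Their matches have the same letters read on opposite strands, so they may be the same element. In Hsph1 the matches lie after the start, outside the stretch shown. The stretches shown first are 5′ to 3′ along the gene's strand, upstream of the RefSeq start, with the matched elements in capitals. The gene spans given with the results are from GENCODE, whose outermost start can lie elsewhere, so that the stretches of Dnaja4, Dnaja1 and, further on, Hspa5 lie within the GENCODE span, and those of Hsph1 and, further on, Hsp90b1 reach into it. They are Hspe1 at chr1:55088024-55088111 on the plus strand, Hsph1 at chr5:149636337-149636404 on the minus strand, Dnaja4 at chr9:54699434-54699549 on the plus strand, Dnaja1 at chr4:40722309-40722386 on the plus strand, Hspa1a at chr17:34972218-34972295 on the minus strand, Hspa1b at chr17:34959300-34959377 on the minus strand and Hspb1 at chr5:135887767-135887864 on the plus strand. In Hspe1, overlapping elements with 3 units form 1 run of capitals.
Hspe1: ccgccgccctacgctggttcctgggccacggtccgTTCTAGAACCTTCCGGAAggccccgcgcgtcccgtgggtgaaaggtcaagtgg
Hsph1: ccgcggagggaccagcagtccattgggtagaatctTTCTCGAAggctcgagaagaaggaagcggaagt
Dnaja4: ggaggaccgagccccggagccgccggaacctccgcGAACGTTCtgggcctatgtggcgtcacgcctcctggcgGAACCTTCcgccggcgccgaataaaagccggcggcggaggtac
Dnaja1: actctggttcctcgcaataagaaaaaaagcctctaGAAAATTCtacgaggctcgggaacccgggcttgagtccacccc
Hspa1a: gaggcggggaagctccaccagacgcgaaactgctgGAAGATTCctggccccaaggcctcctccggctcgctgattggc
Hspa1b: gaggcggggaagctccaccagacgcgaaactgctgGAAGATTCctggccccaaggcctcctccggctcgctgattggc
Hspb1: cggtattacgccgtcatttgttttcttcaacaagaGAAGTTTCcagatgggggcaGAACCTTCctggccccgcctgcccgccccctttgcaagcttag
The stretches of Hspa1a and Hspa1b had 0 mismatches over 78 bases. Other members carried the ER stress response element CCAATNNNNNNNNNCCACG (on the other strand CGTGGNNNNNNNNNATTGG), which was found in 0.119% of all windows and in 3 members: the ER chaperones Hspa5 and Hsp90b1 and the ER cochaperone Dnajc3. Their stretches are Hspa5 at chr2:34771990-34772078 on the plus strand, Hsp90b1 at chr10:86705498-86705691 on the minus strand and Dnajc3 at chr14:118937792-118937880 on the plus strand. The element is again in capitals, and Hsp90b1 holds it once on each strand.
Hspa5: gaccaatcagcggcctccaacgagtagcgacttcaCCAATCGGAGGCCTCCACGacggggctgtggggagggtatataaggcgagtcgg
Hsp90b1: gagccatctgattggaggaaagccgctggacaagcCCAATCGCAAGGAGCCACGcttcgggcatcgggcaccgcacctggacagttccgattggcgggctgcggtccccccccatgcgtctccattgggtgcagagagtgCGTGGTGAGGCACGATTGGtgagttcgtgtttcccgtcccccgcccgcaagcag
Dnajc3: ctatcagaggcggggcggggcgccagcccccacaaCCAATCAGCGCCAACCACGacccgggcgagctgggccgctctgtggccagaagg
A match describes these letters only and is no evidence of binding.

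Fat carried most of these messages. Levels between genes are given in TPM, transcript abundance scaled to the library and to gene length, as the median over the 18 libraries. The constitutive cytosolic HSP70 Hspa8 had 1221 TPM and the constitutive HSP90 Hsp90ab1 715 TPM. The ER chaperones Hspa5 (BiP) and Hsp90b1 (GRP94) had 358 and 299 TPM, and the mitochondrial HSP70 Hspa9 had 298 TPM. The mitochondrial chaperonin Hspd1 (HSP60) had 244 TPM and its partner Hspe1 (HSP10) 133 TPM. Among the DnaJ cochaperones Dnaja1 was highest, at 201 TPM, followed by Dnajb6 at 125 TPM and the mitochondrial Dnajc15 at 113 TPM. The stress-inducible HSP70 genes were low, with 6.27 TPM for Hspa1a and 7.74 TPM for Hspa1b. Among the regulators Hsbp1, which encodes a small protein that binds HSF1, had 165 TPM, against 23.8 TPM for Hsf1 and 10.6 TPM for Hsf2. Of the 75 members, 67 passed the filter on low counts and were tested in every comparison. The others were Dnajb7, Dnajb8, Dnajc22, Dnajc5b, Dnajc5g, Dnajc6, Hspb3 and Hspb9, of which Dnajb8 and Dnajc5g had 0 counts throughout.

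**Figure D1:**
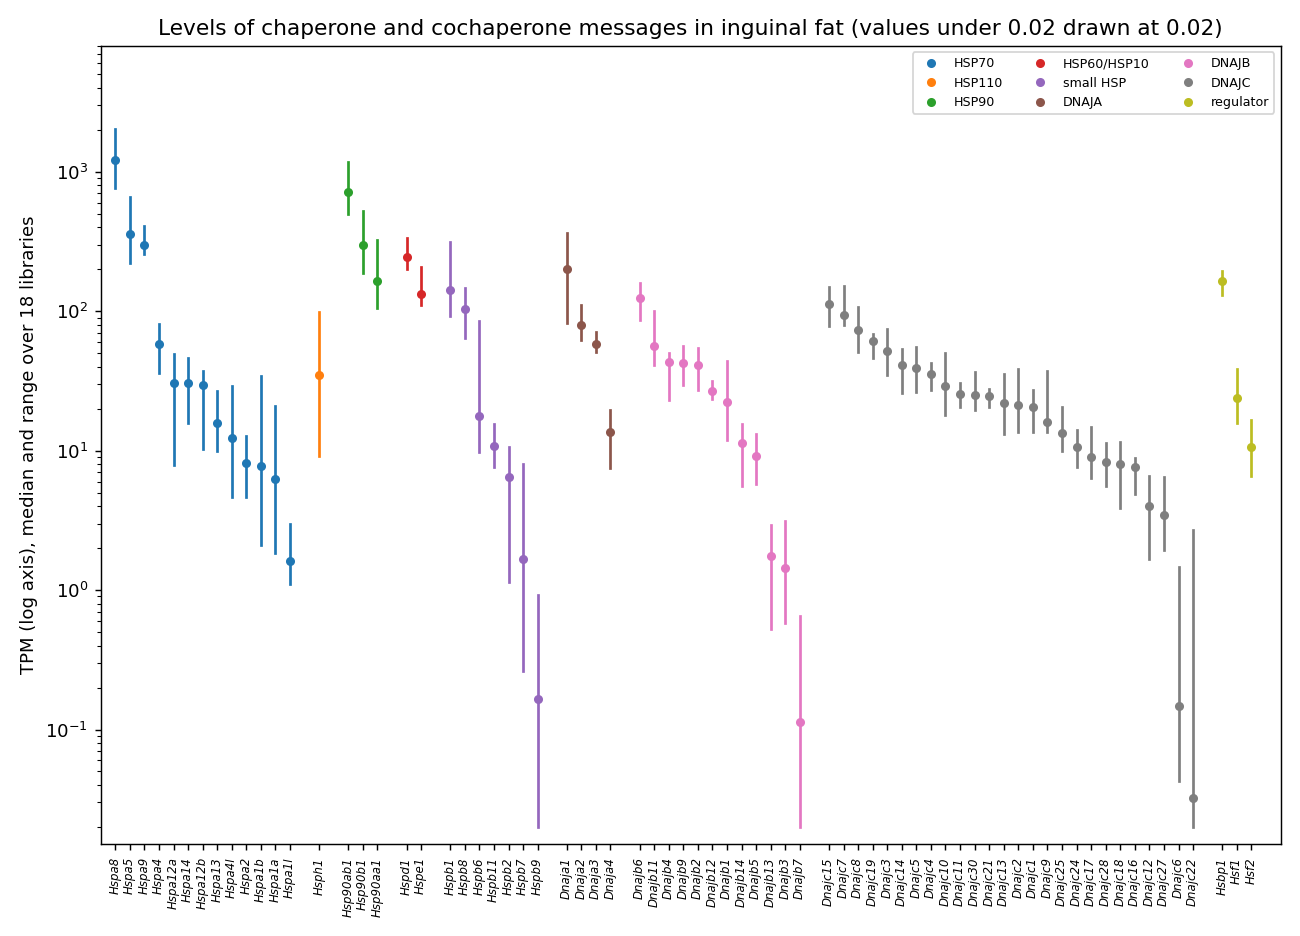
Level of each member in TPM on a log axis, grouped by family. Points are medians over 18 libraries and lines run from the lowest to the highest library; members with a median of 0 are not drawn. Hspa8 stands highest, and Dnajc15 stands highest in family C.

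Library totals ran from 14566155 to 18969387 counts, and the members took between 0.593% and 1.02% of them. Fat cell genes were high in every library (summed level of 10 adipocyte markers from 25884 to 67327 CPM, the count scaled to library size), and other tissue was present unevenly. The summed level of 19 skeletal muscle genes was 21.2 to 3151 CPM in LLC and 18.2 to 7007 CPM in PBS at day 21, and 18.6 to 2316 CPM in LLC and 24.8 to 9961 CPM in PBS at day 7. LLC library 3 of day 21 stood apart in 6 B cell genes, with 1246 CPM. In bulk tissue fewer cells of a type and less RNA per cell cannot be told apart.

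In tumour-bearing fat the listed HSF1 target chaperones averaged lower at day 21 than at day 7, and 4 of them passed the threshold (edgeR's quasi-likelihood test, Benjamini-Hochberg adjusted p under 0.05). They are cytosolic, apart from the mitochondrial Hspd1 and Hspe1. The list held Hspa1a, Hspa1b, Hspa8, Hspa4l, Hsp90aa1, Hsp90ab1, Hsph1, Hspd1, Hspe1, Hspb1, Dnaja1, Dnaja4, Dnajb1 and Dnajb4. All 14 had a lower level, with a median log2 difference of -0.70 against 0.05 over all genes tested (13 to 14 of 14 lower over 27 alternatives). In PBS the same list also leaned lower at day 21 than at day 7, with 9 of 14 lower and a median of -0.23 (9 to 11 of 14 and medians from -0.47 to -0.17 over 27 alternatives), 0 past the threshold in edgeR or DESeq2 with 0 lower and 1 higher at an unadjusted p under 0.05. Whether the change between days differed between LLC and PBS is the same contrast as whether the LLC effect differed between days, given further on. In LLC, past the threshold were 4 of the 67 members tested, all lower and all of this list: Dnaja4, Dnaja1, Hspa4l and Hsph1. They are 5.97% of the members, and 0.93% of all genes were lower past the threshold and 1.77% changed in either direction. DESeq2 called 11 members (against 5.81% of genes), 10 of them lower (against 2.78%). In edgeR 15 members were lower at an unadjusted p under 0.05, 11 of them HSF1 targets, against 7.71% of genes. The list was chosen with earlier results of these data known. Its share of the members called, here and in the later comparisons, is therefore a description only. The count of 4 rested on single libraries: it was 1 without LLC library 2 of day 7, 2 without LLC library 3 of day 7, 6 without LLC library 2 of day 21 and 9 without LLC library 1 of day 21.

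Other gene groups also differed in level between days in LLC. All 10 progenitor and fibroblast genes were lower at day 21 (median log2 -0.61, 1 past the threshold in edgeR and 2 in DESeq2), with summed levels of 1612 to 11794 CPM in LLC at day 21 and 5092 to 14027 CPM in LLC at day 7. All 7 beige and brown fat genes were lower (median log2 -1.05, 0 past the threshold in edgeR, 4 at an unadjusted p under 0.05 and 3 in DESeq2), with 26.8 to 219 CPM in LLC at day 21 and 154 to 383 CPM in LLC at day 7. All 19 skeletal muscle genes and all 9 cell cycle genes were higher, 0 past the threshold in edgeR (2 muscle and 0 cell cycle genes in DESeq2, 2 and 0 at an unadjusted p under 0.05). Summed cell cycle genes were 470, 87.5, 115, 87.1 and 73.9 CPM in LLC libraries 1 to 5 of day 21. In LLC at day 7 they were 91.8 to 163 CPM. None of these genes was at 0 throughout a group, and their part in the chaperone differences was not tested.

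Hsph1 (chr5:149614287-149636376, minus strand), the HSP110 that swaps the nucleotide of HSP70, had the largest difference of the 4. Levels of 1 gene across libraries are in CPM, scaled together over the 18 libraries. In LLC at day 21 Hsph1 had 77.9, 37.4, 61.6, 22.9 and 27.1 CPM (libraries 1 to 5), and in LLC at day 7 it had 56.9, 161, 173, 80.2 and 161 CPM. The day 7 libraries 2, 3 and 5 were the highest, and libraries 1 and 4 lay near the day 21 range, so the groups overlapped. The log2 difference was -1.48 ± 0.35 (SE), with an edgeR adjusted p of 0.0426. This call was lost in 18 of 27 alternative settings. Leaving out any 1 library of LLC or PBS at day 7, LLC library 3, 4 or 5 of day 21, or PBS library 1 or 2 of day 21 gave an adjusted p from 0.0556 to 0.104 in edgeR, with log2 differences between -1.67 and -1.31. With the replicate number as a block the adjusted p was 0.0830. In PBS, Hsph1 had 41.6, 39.7, 50.5 and 53.7 CPM at day 21 and 49.6, 78.6, 96.1 and 83.2 CPM at day 7 (log2 -0.73 ± 0.38, edgeR adjusted p = 0.292).

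Dnaja4 (chr9:54698873-54716315, plus strand), a family A partner of HSP70, held its call in all 27 alternatives. Its level in LLC was 15.0, 20.3, 15.4, 16.7 and 16.0 CPM at day 21 and 23.6, 28.4, 28.3, 25.1 and 31.4 CPM at day 7. No library of day 21 reached the lowest of day 7 (log2 -0.71 ± 0.10, edgeR adjusted p = 0.0137). The PBS libraries gave the opposite order, 24.3, 23.5, 26.5 and 22.4 CPM at day 21 and 17.6, 18.4, 22.6 and 21.2 CPM at day 7 (log2 0.28 ± 0.12, edgeR adjusted p = 0.186).

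Dnaja1 (chr4:40722150-40737149, plus strand), the most abundant DnaJ message, also separated the days in LLC by CPM. It had 228, 172, 187, 136 and 142.5 CPM in LLC at day 21 and 240.0, 414, 377, 269 and 359 CPM in LLC at day 7. In CPM every library of day 21 was lower than every library of day 7, the closest being library 1 of each (log2 -0.94 ± 0.16, edgeR adjusted p = 0.0183). In TPM the LLC groups overlapped, with 82.2 to 249 TPM at day 21 and 213 to 366 TPM at day 7. The PBS levels were 217, 220.4, 250.3 and 203 CPM at day 21 and 231, 259, 289 and 272 CPM at day 7. Without LLC library 2 of day 7 the LLC difference was -0.85 with an edgeR adjusted p of 0.0535.

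Hspa4l (chr3:40744495-40796103, plus strand), an HSP110-like relative of HSP70, had 37.1, 31.1, 23.7, 17.2 and 16.2 CPM in LLC at day 21. At day 7 it had 36.7, 60.8, 68.3, 44.8 and 83.6 CPM in LLC. Library 1 of day 21 alone reached into the day 7 range (log2 -1.23 ± 0.23, edgeR adjusted p = 0.0207). Without LLC library 2 or library 3 of day 7 the edgeR adjusted p was 0.0563 or 0.0520. Limma on log2(TPM + 1) left Dnaja1 at an adjusted p of 0.0712 and Hspa4l at 0.0746, with log2 differences of -1.01 and -1.16.

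The other listed targets were lower without passing edgeR's threshold. The inducible HSP90 Hsp90aa1 averaged 252 ± 64.2 CPM in LLC at day 21 and 404 ± 130.3 CPM in LLC at day 7 (mean and SD of 5 libraries each; log2 -0.68, edgeR adjusted p = 0.0900). Hspa8 averaged 1474 ± 293 CPM in LLC at day 21 and 2098 ± 411 CPM in LLC at day 7 (log2 -0.51, edgeR adjusted p = 0.124). Hspb1 (HSP27), a small heat shock protein, averaged 58.7 ± 13.8 CPM in LLC at day 21 and 99.3 ± 40.3 CPM in LLC at day 7 (log2 -0.76, edgeR adjusted p = 0.101). These 3 were called by DESeq2, as were Hspa1a and Dnajb4. Hspa1a had 9.58, 5.97, 9.47, 8.30 and 5.07 CPM in LLC at day 21, against 7.85, 32.1, 18.9, 9.42 and 19.8 CPM in LLC at day 7 (log2 -1.20 ± 0.37, edgeR adjusted p = 0.102). Hspa1b, its near-identical copy, had 20.8, 11.8, 8.83, 13.995 and 8.27 CPM in LLC at day 21, against 9.15, 49.7, 33.4, 13.959 and 30.2 CPM in LLC at day 7. The split of reads between these 2 genes is estimated and less certain than other values. LLC libraries 2, 3 and 5 of day 7 were the highest of both genes, as they were of Hsph1.

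**Figure D2:**
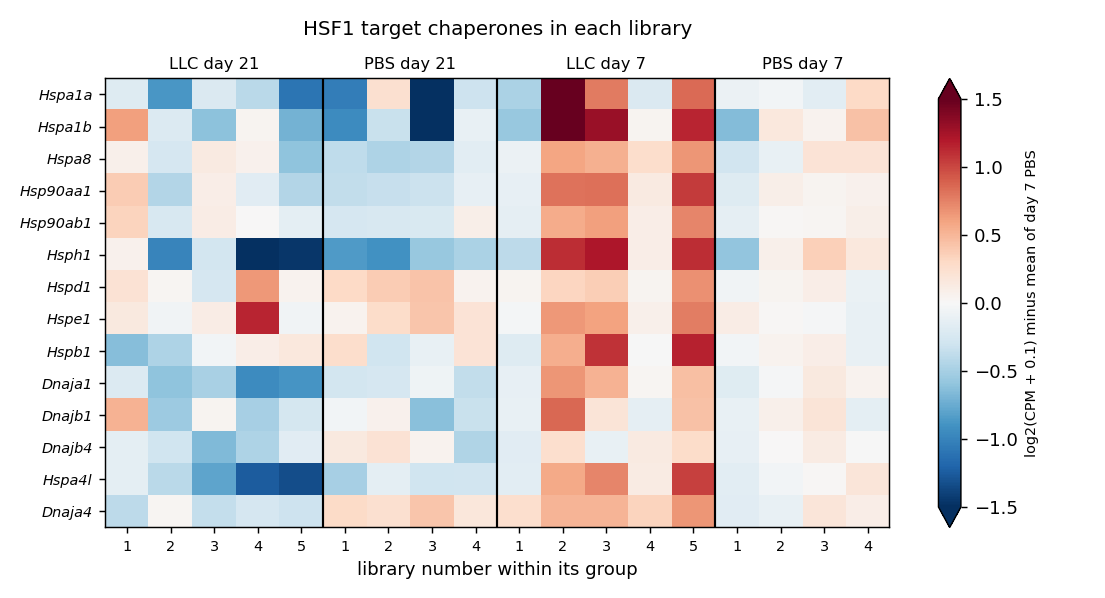
Level of the 14 listed HSF1 target chaperones (rows) in each of 18 libraries (columns), as log2(CPM + 0.1) minus the mean of PBS at day 7; colours saturate at 1.5 in either direction. LLC libraries 2, 3 and 5 of day 7 are high across nearly all rows, and libraries 1 and 4 of that group are closer to PBS.

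Genes tied to these chaperones but not picked by the symbol rule were set beside them. Of 26 genes listed as cochaperones of HSP70 and HSP90, 14 were higher and 12 lower in LLC at day 21 than in LLC at day 7. Their median log2 difference was 0.02. Past the threshold in edgeR were Cryab, a small heat shock protein by structure (log2 -1.01, adjusted p = 0.01998), and Chordc1, an HSP90 partner (log2 -0.70, adjusted p = 0.0333), both lower. Of the 8 subunits of TRiC, the cytosolic chaperonin that folds actin and tubulin, 6 were higher and 2 lower (5 to 7 higher over 27 alternatives), and 0 passed the threshold in edgeR (3 higher at an unadjusted p under 0.05, and 0 in DESeq2).

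Outside the HSF1 targets DESeq2 called 1 member higher and 1 lower in LLC between days. Dnajc8, a family C member found with the splicing machinery, had 55.2, 56.3, 67.3, 74.7 and 62.4 CPM in LLC at day 21 and 52.4, 51.1, 47.9, 53.3 and 50.1 CPM in LLC at day 7, without overlap (log2 0.31 ± 0.09, DESeq2 adjusted p = 0.0361, edgeR adjusted p = 0.0900). Dnajb2, a cochaperone with binding sites for ubiquitin, was lower without overlap in CPM (log2 -0.44 ± 0.13, DESeq2 adjusted p = 0.0272, edgeR adjusted p = 0.0813). In TPM its LLC groups overlapped, with 27.1 to 42.1 TPM at day 21 and 38.4 to 54.5 TPM at day 7. Of the 67 members, 1 was higher and 3 were lower without overlap in CPM (1.49% and 4.48%), against 1.69% and 1.64% of genes.

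**Figure D3:**
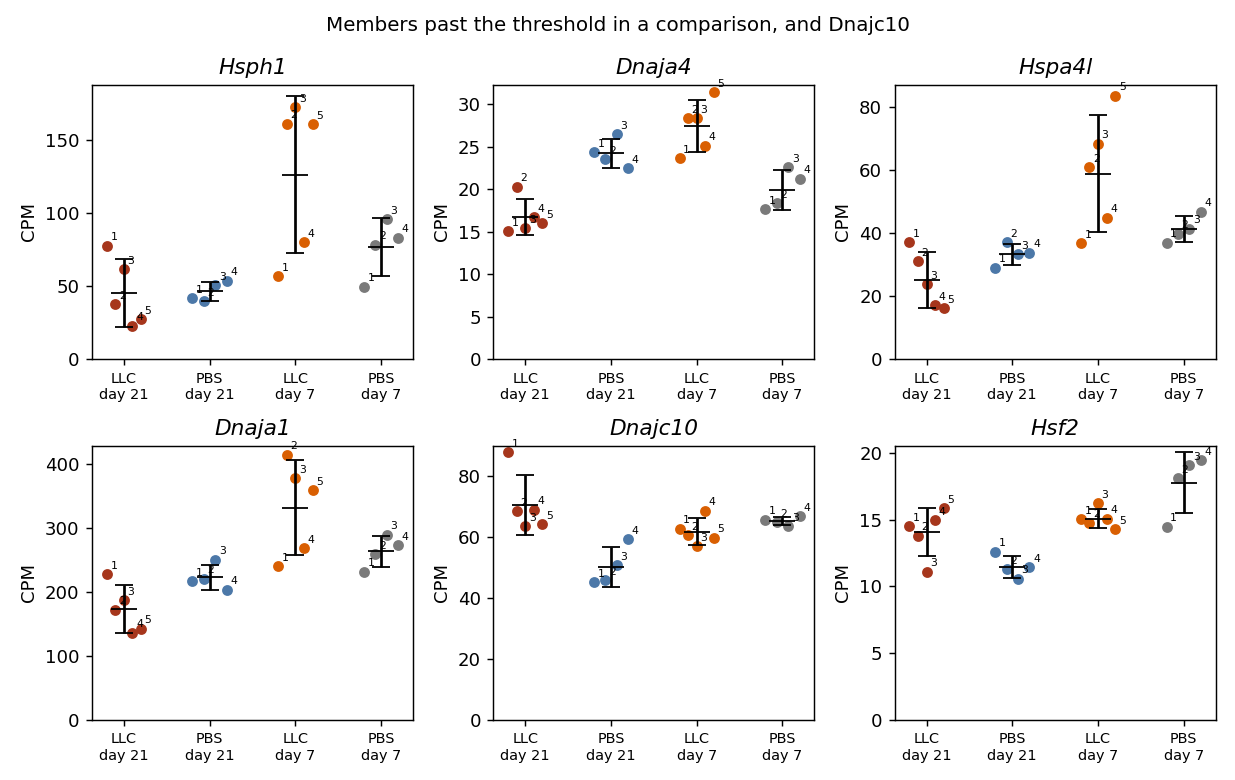
CPM of 6 members in each library, with the mean and SD of each group. Hsph1, Dnaja4, Hspa4l and Dnaja1 average lower in LLC at day 21 than in LLC at day 7, Dnajc10 is lowest in PBS at day 21, and Hsf2 is lower in PBS at day 21 than in PBS at day 7.

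PBS fat gives the change between days without a tumour. In edgeR 1 member passed the threshold, Hsf2, which was lower at day 21 (1.49% of members); 2.52% of all genes were lower past it and 3.21% changed in either direction. The count was 0 without PBS library 2 of day 21 or PBS library 4 of day 7, 2 without PBS library 4 of day 21 and 3 without LLC library 1 of day 21. DESeq2 called 4 members (Hsf2 and Dnajc10 lower, Dnajb3 and Dnajc14 higher), against 7.94% of genes. Dnajb3 was near the floor, with 1.07 to 2.02 CPM in PBS at day 21 and 0.292 to 0.917 CPM in PBS at day 7. It was called in 1 of 26 alternatives, DESeq2 (edgeR adjusted p = 0.0963). Hsf2 (chr10:57486385-57513135, plus strand) encodes heat shock factor 2, a partner of HSF1 with roles in development. Its level was 12.6, 11.3, 10.6 and 11.4 CPM in PBS at day 21 and 14.5, 18.1, 19.1 and 19.5 CPM in PBS at day 7, without overlap (log2 -0.63 ± 0.12, edgeR adjusted p = 0.0118). Without PBS library 2 of day 21 the adjusted p was 0.0595 (log2 -0.62), and without PBS library 4 of day 7 it was 0.0595 (log2 -0.59). In LLC, Hsf2 had 14.5, 13.8, 11.1, 14.9 and 15.9 CPM at day 21 and 15.0, 14.8, 16.2, 15.1 and 14.3 CPM at day 7, which overlap (log2 -0.10 ± 0.10, edgeR adjusted p = 0.635).

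The other regulators passed the threshold of neither edgeR nor DESeq2 in any of the 5 comparisons. Hsf1 averaged 26.7 ± 5.98 CPM in LLC and 21.8 ± 1.18 CPM in PBS at day 21, and 26.6 ± 2.39 CPM in LLC and 24.8 ± 1.39 CPM in PBS at day 7 (SD, n = 5 for LLC and n = 4 for PBS). Hsbp1 averaged 102 ± 10.5 CPM in LLC and 115 ± 6.99 CPM in PBS at day 21, and 106 ± 3.66 CPM in LLC and 108 ± 7.72 CPM in PBS at day 7. HSF1 acts largely through its protein state, which message levels do not measure.

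In PBS the listed ER and mitochondrial chaperones differed between days in opposite directions. The ER list held Hspa5, Hsp90b1, Hspa13, Dnajb9, Dnajb11, Dnajc1, Dnajc3, Dnajc10 and Dnajc25. The mitochondrial list held Hspa9, Hspd1, Hspe1, Dnaja3, Dnajc4, Dnajc11, Dnajc15, Dnajc19 and Dnajc30. Not listed were the ER-anchored Dnajc14 and Dnajb12, which were higher in PBS at day 21 than at day 7 (log2 0.17 and 0.13). All 9 ER chaperones were lower in PBS at day 21 than in PBS at day 7 (median log2 difference -0.19), and all 9 mitochondrial chaperones were higher (0.29), against 0.01 over all genes; over 27 alternatives 8 to 9 of the ER set were lower and 7 to 9 of the mitochondrial set higher, with medians from -0.40 to -0.16 and from 0.08 to 0.41. With limma on log2(TPM + 1) the medians were -0.40 and 0.08, where the median of all genes was -0.17. In edgeR 0 of these 18 passed the threshold (2 ER members lower and 2 mitochondrial members higher at an unadjusted p under 0.05, where 10.9% of all genes were lower and 9.47% higher), and DESeq2 called Dnajc10 alone, lower. Of the members tested, 4 were higher and 6 lower without overlap between the days, or 5.97% and 8.96%, against 7.92% and 8.38% of all genes. The summed level of 10 macrophage genes was 463, 465, 297 and 2595 CPM in PBS libraries 1 to 4 of day 21, against 1719 to 2839 CPM in PBS at day 7. Of these genes 9 were lower, 1 of them past the threshold in edgeR, and none was at 0 throughout a group. All 10 progenitor and fibroblast genes were lower, 3 past the threshold, with summed levels of 2708 to 13462 CPM in PBS at day 21 and 10728 to 16332 CPM in PBS at day 7. All 10 adipocyte genes were higher (0 past the threshold in edgeR, 4 at an unadjusted p under 0.05 and 4 in DESeq2), with 44108 to 57453 CPM in PBS at day 21 and 31252 to 40863 CPM in PBS at day 7. All 7 beige and brown fat genes were higher (median log2 0.99, 0 past the threshold in edgeR, 4 at an unadjusted p under 0.05 and 1 in DESeq2), with 146 to 300.2 CPM in PBS at day 21 and 43.5 to 113 CPM in PBS at day 7. None of these genes was at 0 throughout a group. The part of these cell types in the chaperone differences was not tested.

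Dnajc10 (ERdj5; chr2:80315466-80354043, plus strand), an ER cochaperone that reduces disulfide bonds, is one of the ER set. It had 45.1, 45.7, 50.7 and 59.3 CPM in PBS at day 21 and 65.7, 64.9, 63.5 and 66.8 CPM in PBS at day 7, without overlap (log2 -0.38 ± 0.11, edgeR adjusted p = 0.0616). In LLC it had 87.7, 68.3, 63.4, 68.8 and 64.2 CPM at day 21 and 62.7, 60.6, 56.8, 68.6 and 59.8 CPM at day 7. PBS library 4 of day 21 was the closest to day 7 for Dnajc10. It also had a macrophage level of the day 7 range, whose part in Dnajc10 was not tested. Without that library the PBS difference was -0.47 with an edgeR adjusted p of 0.00852, and without LLC library 1 of day 21 it was -0.36 with 0.0272. Among the mitochondrial proteases outside the families, Lonp1 rose in PBS at day 21 relative to day 7 (log2 0.53, edgeR adjusted p = 0.0372), and all 7 listed proteases were higher.

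LLC was also set against PBS within each day. These comparisons use the libraries described so far, so their values are not independent of those between days. At day 21, 0 of the 67 members passed the threshold in edgeR, as did 0.0885% of 13564 genes. The count was 1 without LLC library 2 and 3 without PBS library 4 of that day. At an unadjusted p under 0.05 there were 5 members higher and 7 lower (7.46% and 10.4%, against 11.9% and 11.5% of genes). DESeq2 called 5 members, 7.46% against 11.4% of genes: Dnajc10 and Dnajc8 higher, and Dnaja4, Dnajb2 and Dnajc14 lower. Without overlap between the groups were 3 members higher and 4 lower, 4.48% and 5.97%, against 5.23% and 4.47% of genes. A fit of all 18 libraries called 9 members (the 5 called by DESeq2, together with Dnajc2, Dnajc3 and Hsp90b1 higher and Hspa12a lower), or 13.4%, against 19% of genes.

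The HSF1 targets were divided at day 21, with 6 higher and 8 lower in LLC than in PBS and a median log2 difference of -0.03. At an unadjusted p under 0.05 in edgeR 0 of them were higher and 3 lower, and DESeq2 called 1, lower. Dnaja4, with the CPM given above, did not overlap between LLC and PBS and was lower in LLC (log2 -0.56 ± 0.12, edgeR adjusted p = 0.0666, DESeq2 adjusted p = 0.00198). Dnajb2 had 26.3, 34.3, 38.9, 39.8 and 38.3 CPM in LLC and 50.4, 50.9, 55.8 and 41.1 CPM in PBS at day 21 (log2 -0.50 ± 0.14, edgeR adjusted p = 0.104, DESeq2 adjusted p = 0.0290). Dnajc14, an ER-anchored cochaperone, had 74.7, 64.9, 68.4, 66.5 and 70.8 CPM in LLC and 79.6, 84.3, 81.8 and 78.6 CPM in PBS at day 21 (log2 -0.25 ± 0.08, edgeR adjusted p = 0.125, DESeq2 adjusted p = 0.0153). In CPM all LLC libraries of these 3 genes were lower than all PBS libraries. In TPM this held for Dnaja4 only. Dnajb2 had 27.1 to 42.1 TPM in LLC and 36.0 to 45.3 TPM in PBS at day 21. Dnajc14 had 26.1 to 53.9 TPM in LLC and 38.0 to 41.2 TPM in PBS. Over 19 alternatives the log2 difference of Dnajc14 ran from -0.29 to -0.06.

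The listed ER chaperones leaned the other way at day 21, with 8 of 9 higher in LLC than in PBS. Their median log2 difference was 0.29, against 0.02 over all genes (7 to 9 of 9 higher and medians from 0.15 to 0.40 over 19 alternatives, 0.18 without LLC library 1). Outside the list, the ER-anchored Dnajc14 and Dnajb12 were lower in LLC than in PBS (log2 -0.25 and -0.08). Between days the list was lower in PBS at day 21, as given above. In LLC at day 21 against LLC at day 7, 3 of the list were higher and 6 lower (median log2 -0.07). Hsp90b1 had 638, 445, 466, 646 and 372 CPM in LLC and 319.9, 330.1, 340.4 and 423 CPM in PBS (log2 0.52 ± 0.20, edgeR adjusted p = 0.160). Hspa5, which detects unfolded protein in the ER, had 715, 409.6, 456, 543 and 316 CPM in LLC and 398, 389, 374 and 417 CPM in PBS (log2 0.29 ± 0.22, edgeR adjusted p = 0.441). Dnajc3 (p58IPK) had 161, 144, 137, 184 and 125 CPM in LLC and 114, 112.5, 120.4 and 120.0 CPM in PBS, without overlap (log2 0.34 ± 0.13, edgeR adjusted p = 0.151). LLC libraries 1 and 4 were highest and library 5 lowest of LLC for Hsp90b1, Hspa5 and Dnajc3. The same order was seen in Dnajb11, an ER cochaperone not among the members found with the ER stress response element. LLC libraries 1 to 5 had 9, 7, 5, 7 and 3 of the 9 ER chaperones above every PBS library, against 35.3, 20.7, 33.5, 32.4 and 26.3% of all genes. They had 0, 1, 1, 1 and 4 of the 9 below every PBS library, against 33.5, 24.9, 33, 28.8 and 24.5% of all genes, so that LLC library 5 had more below than above. Of 20 genes of the unfolded protein response outside the families, 16 were higher in LLC at day 21 (median log2 0.32), 0 past the threshold in edgeR, 4 at an unadjusted p under 0.05 and 1 in DESeq2. All 10 macrophage genes were higher (0 past the threshold in edgeR, 1 in DESeq2, none at 0 throughout a group), with summed levels of 1056 to 3527 CPM in LLC and 297 to 2595 CPM in PBS at day 21. Endothelial genes were higher in 6 of 7 (4 in DESeq2), with 812 to 1262 CPM in LLC and 629.9 to 890.4 CPM in PBS. Of the 5 neutrophil genes 4 were tested and all 4 were higher (3 in DESeq2), with 10.5 to 55.5 CPM in LLC and 1.37 to 8.36 CPM in PBS. Cell cycle genes were higher in 9 of 9, 0 in DESeq2, with 470, 87.5, 115, 87.1 and 73.9 CPM in LLC libraries 1 to 5. PBS had 66.9 to 100 CPM, so LLC libraries 1 and 3 alone stood above the PBS range. Adipocyte genes were lower in 8 of 10 (3 in DESeq2), with 25884 to 67327 CPM in LLC and 44108 to 57453 CPM in PBS, and beige and brown fat genes were lower in 7 of 7 (2 in DESeq2). None of these genes passed the threshold in edgeR or was at 0 throughout a group, and their part in the levels of the ER and mitochondrial chaperones was not tested.

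Mitochondrial chaperones were lower in 8 of 9 at day 21 (median log2 -0.14; 5 to 9 of 9 and medians from -0.29 to -0.03 over 19 alternatives), with 0 past the threshold in edgeR, 0 at an unadjusted p under 0.05 and 0 in DESeq2. The median was -0.29 without LLC library 4, -0.22 without PBS library 4, -0.07 without LLC library 3, -0.09 without LLC library 5 and -0.03 with limma on log2(TPM + 1). Hspa9 had 382, 612, 358, 931 and 526 CPM in LLC and 557, 583, 645 and 439 CPM in PBS at day 21, and Hspe1 had 56.1, 48.8, 54.4, 111 and 48.6 CPM in LLC and 52.4, 61.2, 67.3 and 58.1 CPM in PBS. LLC library 4 was the highest of all libraries for both genes. It also had the highest share of counts from mitochondrially encoded genes, 20.8%, against 8.45% to 15.4% in the other LLC libraries of that day, and the part of that share was not tested.

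**Figure D4:**
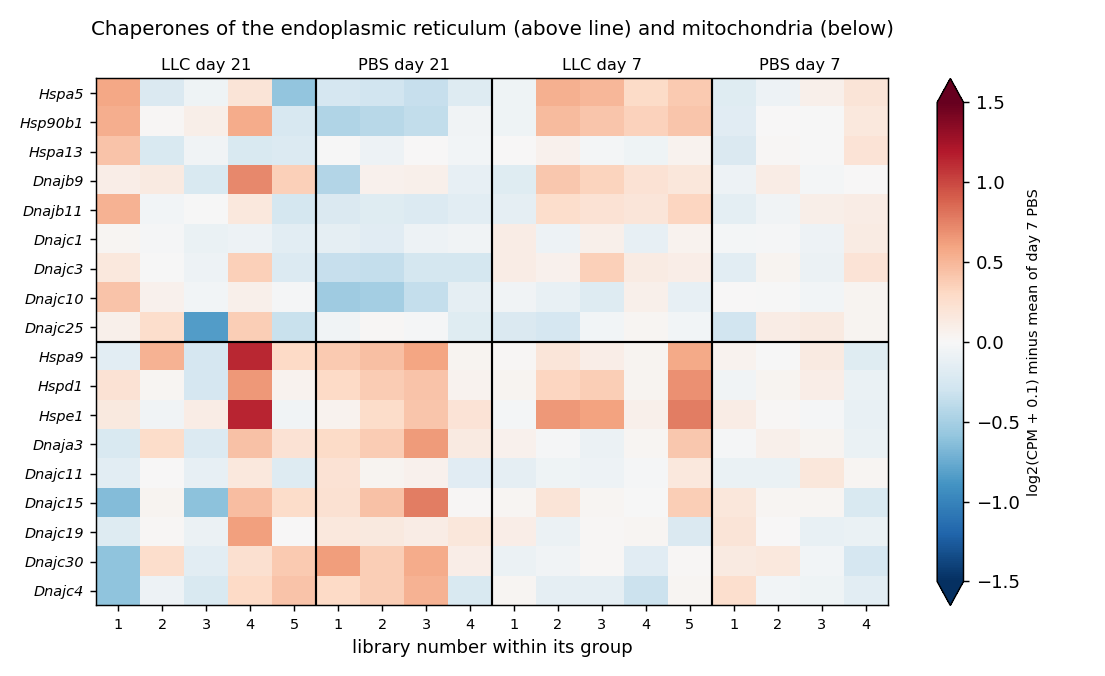
Level of the listed ER and mitochondrial chaperones in each of 18 libraries, as log2(CPM + 0.1) minus the mean of PBS at day 7; colours saturate at 1.5 in either direction. Most ER rows are higher in LLC library 1 of day 21 than in PBS of that day, and Hspa9 and Hspe1 are highest in LLC library 4 of day 21.

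At day 7, the earlier stage, all 14 HSF1 target chaperones were higher in LLC than in PBS, with a median log2 difference of 0.45 against 0.00 over all genes. In edgeR 0 members passed the threshold, as did 0.00744% of 13445 genes, namely 1 gene, Ucp1, the heat-producing protein of beige fat. At an unadjusted p under 0.05 there were 12 members higher and 2 lower, or 17.9% and 2.99%, against 4.86% and 3.64% of genes, and 10 of the 12 were HSF1 targets. DESeq2 called 1 member, Dnaja4, against 0.692% of genes. Dnaja4 was also the 1 member higher without overlap in CPM (1.49%, against 1.18% of genes). It had a log2 difference of 0.46 ± 0.11, an edgeR adjusted p of 0.383 and a DESeq2 adjusted p of 0.0338. In TPM its groups overlapped, with 14.9 to 19.6 TPM in LLC and 10.6 to 15.2 TPM in PBS at day 7.

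The other targets stood above every PBS library mainly in LLC libraries 2, 3 and 5. Hsp90aa1 had 243, 468, 469.8, 292 and 549 CPM in LLC and 233, 281, 273 and 277 CPM in PBS at day 7 (log2 0.61 ± 0.22, edgeR adjusted p = 0.502). Hsp90ab1 had 852, 1381, 1432.5, 1007 and 1561 CPM in LLC and 852, 951, 961 and 995 CPM in PBS (log2 0.41 ± 0.17, edgeR adjusted p = 0.559). Hspa8 had 1480.0, 2374, 2272, 1888.5 and 2478 CPM in LLC and 1286, 1450.5, 1812 and 1806 CPM in PBS (log2 0.41 ± 0.17, edgeR adjusted p = 0.560). In each of these genes LLC library 1 lay within the PBS range of all libraries or at its lower end. Set against the PBS library of the same number, LLC was higher in all 4 pairs for Hspa8 and Hsp90aa1 and in 3 of 4 for Hsp90ab1, and in pairs 1 to 4 it was higher for 8, 14, 13 and 9 of the 14 targets, against 49.8, 49.4, 49.2 and 50.7% of all genes. Of the 14 targets 5 were higher in all 4 pairs, against 9.04% of all genes. Whether a shared number marks a true pair is not known. Counted over the list, LLC libraries 1 to 5 had 1, 14, 13, 5 and 14 of the 14 targets above every PBS library, against 17, 23, 20.7, 20.2 and 26.3% of all genes. They had 5, 0, 0, 1 and 0 of the 14 below every PBS library, against 16.2, 22.8, 21.9, 19.9 and 28.2% of all genes. The TRiC chaperonin, outside the families, gave 0, 8, 7, 3 and 8 of its 8 subunits above and 4, 0, 0, 0 and 0 below every PBS library in the same libraries, and all 8 were higher on average (median log2 0.12, 0 past the threshold in edgeR or DESeq2 and 0 at an unadjusted p under 0.05).

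Other gene groups differed between these LLC libraries. Summed immediate early genes, which respond to handling as well as to signals, were 293, 774, 533, 482 and 361 CPM in LLC libraries 1 to 5 and 277 to 427 CPM in PBS at day 7. All 14 of them were higher in LLC, 0 past the threshold in edgeR (5 at an unadjusted p under 0.05, 0 in DESeq2), and none was at 0 throughout a group. Summed neutrophil genes were 5.75, 33.2, 5.56, 18.1 and 34.4 CPM in LLC and 3.23 to 7.78 CPM in PBS (3 of the 5 tested, all 3 higher, 0 past the threshold in edgeR or DESeq2 and 3 at an unadjusted p under 0.05, none of the 5 at 0 throughout a group). LLC libraries 2 and 4 were above the PBS range in both of these groups and library 1 in neither. Library 3 was above it in immediate early genes alone, and library 5 in neutrophil genes alone. Beige and brown fat genes held the 1 gene past the threshold in edgeR, Ucp1 (log2 5.28, adjusted p = 0.00802). Of the 7, 6 were higher (median log2 1.39, 5 at an unadjusted p under 0.05, 2 in DESeq2, 4 without overlap). Their summed level was 154, 168, 154, 184 and 383 CPM in LLC libraries 1 to 5, every one above the 43.5 to 113 CPM of PBS. All 9 cell cycle genes were higher (0 past the threshold in edgeR or DESeq2, 4 at an unadjusted p under 0.05), with 102, 148, 91.8, 163 and 98.6 CPM in LLC and 89.9 to 98.8 CPM in PBS. None of these genes was at 0 throughout a group, and the part of each group in the chaperone levels was not tested.

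The mitochondrial partners Hspd1 and Hspe1, which stand in the HSF1 list as well, were high in the same LLC libraries at day 7. Hspe1 had 49.4, 79.4, 77.0, 53.2 and 85.8 CPM in LLC and 54.5, 51.1, 50.1 and 46.8 CPM in PBS (log2 0.45 ± 0.16, edgeR adjusted p = 0.502). Hspd1 had 285, 346, 358, 285 and 447 CPM in LLC and 268, 285, 298 and 259 CPM in PBS (log2 0.31 ± 0.13, edgeR adjusted p = 0.560). LLC libraries 2, 3 and 5 exceeded every PBS library for both. Hspa5 averaged 604 ± 93.2 CPM in LLC and 478 ± 54.6 CPM in PBS at day 7, and Hsp90b1 averaged 552 ± 75.6 CPM in LLC and 440.2 ± 40.7 CPM in PBS (SD; edgeR adjusted p = 0.538 for Hspa5 and 0.496 for Hsp90b1). Of the 9 ER chaperones 7 were higher in LLC at day 7, with a median log2 difference of 0.16 (5 to 7 of 9 and medians from 0.07 to 0.20 over 19 alternatives, 0.10 without PBS library 1 and 0.10 without LLC library 3). Hspa5 and Hsp90b1 were higher in LLC in all 4 pairs of the same number.

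Whether the tumour effect differed between days was tested as the effect at day 21 minus the effect at day 7, from all 18 libraries. In edgeR 1 member passed, Dnaja4, which was lower (log2 -0.99 ± 0.16, adjusted p = 0.0148), or 1.49% of members, against 0.15% of genes lower and 0.415% in either direction. The call was lost without PBS library 1 of day 21 (-0.99, adjusted p = 0.0505), without PBS library 2 of day 7 (-0.95, adjusted p = 0.0548) and with limma on log2(TPM + 1) or log2(TPM + 0.1) (-0.79 or -0.85, adjusted p = 0.0909 or 0.0883). The number of members past the threshold was 2 without LLC library 1 of day 21 and 5 without PBS library 4 of day 21. All 14 HSF1 targets and all 9 mitochondrial chaperones had a lower effect at day 21 than at day 7, with medians of -0.43 and -0.30 against 0.05 over all genes; over 27 alternatives the counts were 12 to 14 of 14 and 7 to 9 of 9, with medians from -0.61 to -0.27 and from -0.43 to -0.16. The mitochondrial median was -0.19 without LLC library 1 of day 21, and limma on log2(TPM + 1) gave -0.28 and -0.18. Of the HSF1 targets 5 had an unadjusted p under 0.05, against 7.93% of genes lower. DESeq2 called 5 members, against 5.2% of genes: Dnaja4, Dnajc14 and Dnajb2 lower, and Dnajc10 and Hsf2 higher.

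**Figure D5:**
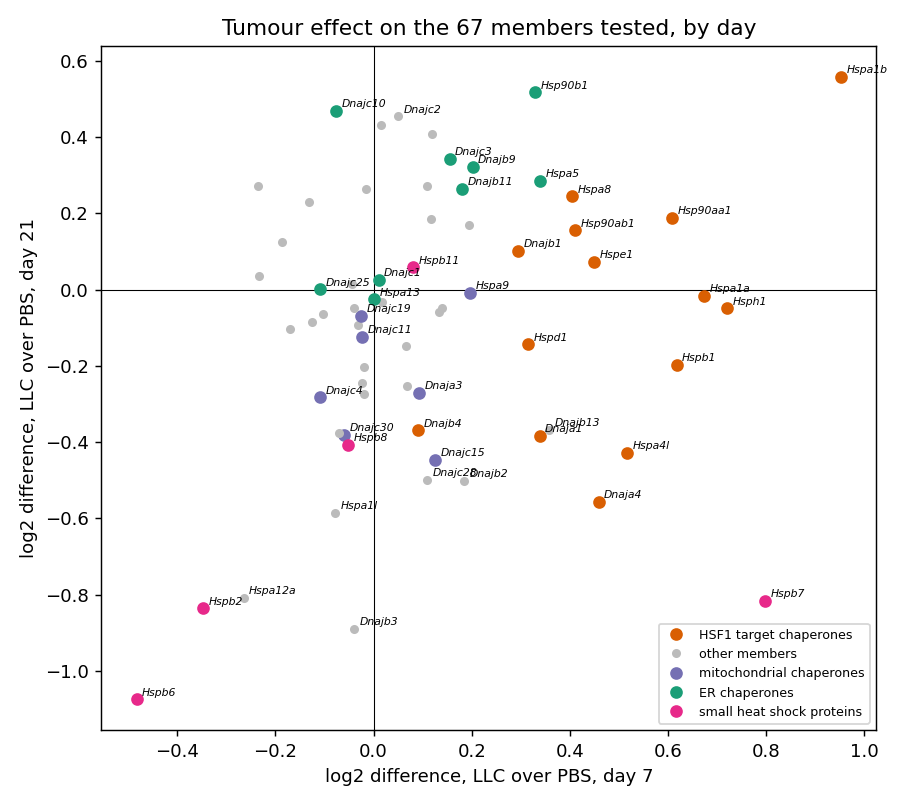
Log2 difference of LLC over PBS at day 21 (vertical) and at day 7 (horizontal) for the 67 members tested, coloured by list. The 14 HSF1 target chaperones lie right of 0 and spread on either side of 0 vertically.

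Most small heat shock proteins averaged lower in LLC than in PBS at day 21, without passing the threshold. Hspb1, one of them, also stands in the HSF1 list. Of the 6 tested, 5 were lower in LLC than in PBS at day 21 (median log2 -0.61; 4 to 7 lower over 19 alternatives, 7 of 8 with no filter on low counts, and medians from -0.71 to -0.22), with 0 past the threshold in edgeR, 0 at an unadjusted p under 0.05 and 0 in DESeq2. The median was -0.22 without PBS library 1, -0.37 with a muscle score in the fit and -0.29 with limma on log2(TPM + 1). Hspb6 (HSP20), abundant in muscle, had 5.75, 18.5, 9.18, 15.5 and 21.9 CPM in LLC and 62.7, 25.9, 17.1 and 11.7 CPM in PBS at day 21 (log2 -1.07 ± 0.52, edgeR adjusted p = 0.244). Hspb7, of heart and skeletal muscle, had 2.02, 4.68, 0.446, 3.99 and 3.33 CPM in LLC and 12.0, 4.85, 0.522 and 2.58 CPM in PBS at day 21. PBS library 1 was the highest of day 21 for both, and it also had the highest summed skeletal muscle level of that day, 7007 CPM. All 19 muscle genes were lower in LLC, 0 past the threshold in edgeR or DESeq2, 0 at an unadjusted p under 0.05 and none at 0 throughout a group, and their part in Hspb6 and Hspb7 was not tested. Hspa12a, a distant HSP70 relative, had 52.1, 85.5, 73.2, 31.8 and 85.4 CPM in LLC and 148, 122, 104 and 79.8 CPM in PBS at day 21 (log2 -0.81 ± 0.29, edgeR adjusted p = 0.148), with PBS library 4 inside the LLC range.

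Chaperones of other compartments and families were set side by side at day 21, and none of those that follow passed the threshold of edgeR or DESeq2 there. Dnajb9, which binds BiP in the ER, averaged 63.4 ± 15.8 CPM in LLC and 49.975 ± 7.83 CPM in PBS at day 21 (log2 0.32, edgeR adjusted p = 0.326). Dnajb11, another ER partner of BiP, averaged 62.1 ± 13.3 CPM in LLC and 51.0 ± 0.965 CPM in PBS at day 21 (log2 0.26, edgeR adjusted p = 0.304). Both averaged higher in LLC. Dnajc15, which sits at the import channel of the inner mitochondrial membrane, averaged 68.5 ± 23.2 CPM in LLC and 91.8 ± 21.0 CPM in PBS at day 21 (log2 -0.45, edgeR adjusted p = 0.315). Dnajc19, another protein of that membrane, averaged 26.1 ± 6.41 CPM in LLC and 27.0 ± 0.473 CPM in PBS at day 21 (log2 -0.07, edgeR adjusted p = 0.812). Dnajc15 averaged lower in LLC, and the 2 means of Dnajc19 differed by less than its SD in LLC. Hspb8, a small heat shock protein that works with BAG3 in autophagy, averaged 91.5 ± 23.0 CPM in LLC and 119 ± 16.2 CPM in PBS at day 21 (log2 -0.41, edgeR adjusted p = 0.218). Dnajb6, which keeps aggregation-prone proteins soluble, averaged 126 ± 30.4 CPM in LLC and 147 ± 24.4 CPM in PBS at day 21 (log2 -0.24, edgeR adjusted p = 0.448). Both averaged lower in LLC. Hspa4, a relative of Hsph1, averaged 133 ± 21.6 CPM in LLC and 135 ± 4.39 CPM in PBS at day 21 (log2 -0.05, edgeR adjusted p = 0.845). Hspa2, an HSP70 best known from the testis, averaged 10.8 ± 2.21 CPM in LLC and 10.97 ± 2.28 CPM in PBS at day 21 (log2 -0.05, edgeR adjusted p = 0.896). Dnajb1, the cochaperone most tied to the heat shock response, averaged 35.2 ± 11.7 CPM in LLC at day 21 and 46.2 ± 14.1 CPM in LLC at day 7 (log2 -0.39, edgeR adjusted p = 0.355). Hspa12b, of blood vessel cells, and Dnajb5 had log2 differences of -0.38 and -0.15 in LLC against PBS at day 21 (edgeR adjusted p = 0.344 and 0.673).

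The DnaJ proteins of family C, apart from Dnajc8, Dnajc10 and Dnajc14, passed the threshold of neither edgeR nor DESeq2; the edgeR fit of all 18 libraries added Dnajc2 and Dnajc3 at day 21 (adjusted p = 0.0263 and 0.0290). Of the 24 family C members tested, 17 were higher and 7 lower in LLC at day 21 than in LLC at day 7 (median log2 0.07), and 13 were higher and 11 lower in LLC than in PBS at day 21 (median 0.01). Dnajc5, which guards vesicle release, averaged 106 ± 11.7 CPM in LLC and 107 ± 3.93 CPM in PBS at day 21, and 105 ± 7.73 CPM in LLC and 104 ± 5.09 CPM in PBS at day 7. Dnaja2, a close relative of Dnaja1, averaged 131 ± 14.2 CPM in LLC and 128 ± 9.67 CPM in PBS at day 21, and 118 ± 3.35 CPM in LLC and 122 ± 8.23 CPM in PBS at day 7. The edgeR adjusted p at day 21 was 0.866 for Dnajc5 and 0.950 for Dnaja2. Dnajc2, which works at the ribosome, averaged 29.0 ± 3.93 CPM in LLC and 20.9 ± 4.48 CPM in PBS at day 21 (log2 0.45, edgeR adjusted p = 0.148). Dnajc9, a histone chaperone, averaged 19.1 ± 5.05 CPM in LLC at day 21 and 14.5 ± 1.72 CPM in LLC at day 7 (log2 0.40, edgeR adjusted p = 0.156).

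Further members were among the 5 with the smallest p in their direction without passing the threshold of edgeR or DESeq2. In LLC at day 21 against LLC at day 7, Dnajc7, a bridge between HSP70 and HSP90, had a log2 difference of 0.26 and Dnajb12, an ER-anchored partner of HSP70, 0.19 (adjusted p = 0.180 and 0.244 in edgeR). In PBS at day 21 against PBS at day 7, Dnajc13, an endosomal protein, stood at -0.35 and Dnajc18 at -0.34, while Dnajc28 stood at 0.59 and the mitochondrial Dnaja3 at 0.37 (edgeR adjusted p from 0.106 to 0.241). In LLC against PBS at day 7, Dnajb12 stood at -0.13 and Hspa14, a ribosome-bound HSP70, at -0.17 (edgeR adjusted p = 0.605 and 0.638). In CPM the groups of Dnajc13, Dnajc28 and Dnaja3 did not overlap between days in PBS, and those of the others did in the comparisons given. In TPM those of Dnaja3 overlapped, with 56.6 to 70.6 TPM in PBS at day 21 and 51.1 to 61.3 TPM in PBS at day 7.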

How the data were processed

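Per the labels' protocols, mRNA was selected on oligo(dT) beads and libraries were prepared with a NEBNext Ultra RNA kit; no step that marks strand is named, so overlapping genes may share reads. The submitters' processing notes list fastp 0.23.0 and RSEM, with builds mm10 and GRCm38. Aligner and annotation: not given in the sources used here. As deposited by the authors, the RSEM expected counts were whole numbers (100% of entries) and were tested as they stand. TPM values, per the file headers, are the authors' own and were used for levels between genes and in limma. The log2 and p-value columns that the authors deposited for their own comparison were not used.

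Counts were tested with edgeR 4.0.16 in R 4.3.3 (TMM, filterByExpr, quasi-likelihood, two-sided, adjusted over all genes tested, threshold 0.05): the 9 libraries of each day for LLC over PBS, and all 18 libraries for comparisons between days. The SE is the log2 difference over the square root of F. DESeq2 1.42.0, limma 3.58.1, other filters, a replicate block and left-out libraries were alternatives. Lists are described by counts and medians. Scores use log2 CPM with a prior count of 2. Members, lists and the rule for named genes (members by role, any called, and the 5 with the smallest p in each direction) were chosen with earlier results of these data known. Positions are from GENCODE on GRCm38 (75 of 75 matched). Libraries of a group differed by more than sampling noise (chi-square per gene at least 15.8 over 32 pairs). Deviations of same-numbered LLC and PBS libraries had correlations of 0.207, 0.12, 0.531 and 0.19 at day 7. At day 21 they were -0.273, 0.302, 0.092 and -0.158, and number 4 of PBS gave 0.501 between days. Libraries of unlike number were not compared, and no label says what a number marks. Pairing at day 7 is thus an assumption, used for the counts by pair and the replicate block, not in the main test. The fits were tested on simulated data.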

Additional observations from a re-analysis of the deposited data

Results flagged for a closer look

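Within groups, 9 of 124 sets of values (27 members and 4 list scores in 4 groups) had a library whose gap to the nearest other exceeded Dixon's critical value; chance marks about 1 in 20. Low ones were Hsp90aa1 in PBS library 1 of day 7 at 233 CPM (others 273 to 281), Hsp90b1 in LLC library 1 of day 7 at 421 CPM (others 556 to 611) and the ER chaperone score in the same library at -0.0523 (others 0.118 to 0.181). High ones in PBS library 4 of day 21 were Hsp90aa1 at 245 CPM (others 206 to 212) and Hsp90ab1 at 997 CPM (others 791 to 802). High ones in LLC at day 21 were Hspe1 in library 4 at 111 CPM (others 48.6 to 56.1) and Dnajc10 in library 1 at 87.7 CPM (others 63.4 to 68.8). High ones in LLC at day 7 were Dnajc3 in library 3 at 185 CPM (others 151 to 158) and Hspa9 in library 5 at 633 CPM (others 432 to 485).

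The effect of the tumour on Dnaja4 differed between days by a test of the difference itself, at -0.99 on the log2 scale (day 21 minus day 7, edgeR adjusted p = 0.0148).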

How the results depend on the processing

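The number of members past the threshold depended on the tool. With DESeq2 it was 1 at day 7 and 5 at day 21 (LLC over PBS), 5 for the difference of the tumour effect, 11 for LLC between days and 4 for PBS between days, where edgeR gave 0, 0, 1, 4 and 1. Limma on log2(TPM + 1) and on log2(TPM + 0.1) each gave 0 for the difference and 1 for LLC between days. A fit of all 18 libraries gave 9 at day 21. Leaving out PBS library 4 and LLC libraries 1 and 3 of day 21 together gave 2 at day 21, 7 for the difference, 11 for LLC and 13 for PBS between days. Leaving out 1 library at a time gave 0 throughout at day 7, 0 to 3 at day 21, 0 to 5 for the difference, 1 to 9 for LLC and 0 to 3 for PBS. The highest came without PBS library 4 of day 21 (3 and 5) and without LLC library 1 of day 21 (9 and 3). DESeq2 size factors, other filters on low counts and the skeletal muscle score as a covariate left each count within 1.5 times. Over all genes at day 21, DESeq2 called 1552 and edgeR 12. The replicate block gave 0, 0, 1, 3 and 1 members, and no label says what a shared number marks. One direction changed: Dnajc14 in PBS between days was -0.0685 with limma on log2(TPM + 1) and -0.0699 with log2(TPM + 0.1), where edgeR gave 0.17; TPM moved the median of all genes there to -0.17 and -0.20, to 0.13 and 0.15 at day 21 and to 0.15 and 0.17 for the difference. The cause was not tested. All 14 HSF1 targets were higher in LLC at day 7 under 19 of 19 alternatives.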
